A study of Mus musculus with 4 samples.

Results

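The solute carriers (SLC) are membrane proteins that move amino acids, sugars, ions, metals, vitamins and nucleotides into cells, out of them and between their compartments. Described here are the protein-coding mouse genes whose symbol begins with Slc, a family number, the letter a and a member number, and which had 40 or more reads summed over the 4 libraries. This rule took 123 of the 348 protein-coding genes with such a symbol, of which 202 had at least 1 read, among 56748 gene IDs counted. The read sum chose the members, so their levels are a description. The comparison between the groups was not used by the rule. The members and the gene lists below were, however, chosen with earlier results of these data known. *Slc25a20* (41 reads) and *Slc36a1* (40 reads) lay just inside the limit, and *Slc24a3* (37 reads) and *Slc9a5* (35 reads) just outside. All 123 members passed the filter on low counts that was applied before testing. The members were grouped by the substrate of their family, and some genes, such as *Slc6a6* and *Slc6a8*, were placed apart from others of their family. This gave 28 mitochondrial carriers, 24 carriers of vitamins, lipids and organic ions, 22 of metals and heme, and 16 of amino acids. It also gave 13 of inorganic ions, 10 of nucleotide sugars, nucleosides and acetyl-CoA, and 8 of sugars and monocarboxylates. The remaining 2, *Slc7a6os* and *Slc4a1ap*, carry the name of a neighbouring gene or binding partner and encode no carrier.

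Most carriers open alternately to one side of the membrane and the other. Some run downhill, and others couple their substrate to the gradient of sodium or protons across the membrane. Most proteins of the Slc25a family sit in the inner mitochondrial membrane and feed the matrix with phosphate, ADP, keto acids and iron, while *Slc25a17* acts in peroxisomes and *Slc25a46* in the outer mitochondrial membrane, and both are counted here with their family. The Slc30a proteins (ZnT) move zinc out of the cytosol, and the Slc39a proteins (ZIP) move it into the cytosol.

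The study lowered hnRNP L, an RNA-binding protein and splicing factor, in C2C12, an established mouse myoblast line. Scrambled myoblasts (2 libraries) carried a non-targeting shRNA, and knockdown myoblasts (2 libraries) carried a cocktail of 3 shRNAs against *Hnrnpl*. Both groups are labelled wild type (WT), were kept in growth medium, carried a plasmid with an eGFP reporter and were selected with puromycin. By the labels, 1 library of either group belongs to batch 1 and the other to batch 2, and the RNA was read directly on nanopore flow cells. The libraries of a group were different passages of 1 selected stable line, so an effect of the knockdown and a property of the selected line cannot be told apart, and the p-values measure the spread between passages. With 2 libraries against 2, an exact permutation test of a single gene cannot go below p = 0.333, so the tests given are from the edgeR model across all genes.

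Counted reads ranged from 1229424 to 1676911 per library, and the share on the 123 members was 0.992% in scrambled 1, 1.03% in scrambled 2, 1.02% in knockdown 1 and 0.978% in knockdown 2. The exact binomial 95% intervals of these shares, which cover counting error only, ran from 0.976% to 1.01%, from 1.02% to 1.05%, from 0.998% to 1.03% and from 0.960% to 0.995%, and the groups overlapped. *Hnrnpl* had 358 and 656 reads in scrambled against 242 and 258 in knockdown, a fall of 0.78 on the log2 scale (SE 0.18, adjusted p = 0.0112 edgeR quasi-likelihood test, adjusted over all genes by Benjamini-Hochberg). The fall was no longer significant without scrambled 2 (log2 fold change -0.47, adjusted p = 0.164) or without knockdown 1 (-0.63, adjusted p = 0.283). With all 4 libraries, the Wald test of DESeq2 with a local fit also gave a fall of *Hnrnpl* (log2 fold change -0.78, adjusted p = 0.00882). The study reported lower *Hnrnpl* in the knockdown myoblasts by qPCR as well. Of the 11 myoblast markers, *Myf5*, *Des*, *Cdh15*, *Vim*, *Mef2a*, *Mef2c* and *Itga7* were read in every library. *Pax7* was at 0 and *Myod1* had 1 read in scrambled 2 only. Their summed normalized counts were 21886 and 22374 in scrambled against 18502 and 20885 in knockdown. *Vim* alone, with 21130, 21525, 17926 and 20388, made up nearly all of these sums. *Cdh15* (M-cadherin, 113, 152, 25 and 14 reads) and *Des* (desmin, 373, 571, 309 and 242 reads) were called lower. The call of *Des* was lost with batch as a replicate block (adjusted p = 0.0526) and with the parametric Wald test of DESeq2 (adjusted p = 0.208). Of 14 late differentiation markers 5 had a read, with summed normalized counts of 26.1 to 31.4 in scrambled and 13.0 to 28.0 in knockdown. Of 15 markers of other cell types, 14 had between 0 and 4 reads per library and *Hba-a1*, an alpha-globin gene, had 645, 516, 226 and 179 and was called lower (log2 fold change -1.35, adjusted p = 0.000162). In RNA of whole cultures, fewer cells of a type and less RNA per cell cannot be told apart, and the part of these marker differences in the results below was not tested.

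hnRNP L binds RNA that is rich in CA repeats, so the transcripts of the members were searched for unbroken runs of alternating C and A. The search used the letters CACACACA on the RNA strand of the canonical transcript of each gene, with longer runs counted once. Such a run of 8 or more bases stood in 29 of the 123 members (23.6%) and in 20.1% of the 8231 protein-coding genes tested. Runs of 20 or more bases stood in 11 members (8.94%) and in 3.56% of those genes, with a median transcript length of 3695 bases for the members and 3528 for all. The sites below are those of *Slc48a1*, *Slc6a17* and *Slc6a6*, which are the members with an unadjusted p under 0.05 between the groups that held such a run, each shown at its longest run. They are given 5′ to 3′ on the RNA strand from the GRCm39 genome, all lie in a 3′ UTR, and the capitals mark the run, or up to 30 bases of it where it is longer.
*Slc48a1*, run of 9 bases, chr15:97689243-97689272, forward strand: cacacatgacCACACACACcagagcaggac
*Slc6a17*, run of 51 bases, chr3:107377010-107377039, reverse strand: CACACACACACACACACACACACACACACA
*Slc6a6*, run of 29 bases, chr6:91735743-91735772, forward strand: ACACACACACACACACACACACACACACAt

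The capitals of *Slc48a1* and *Slc6a17* thus mark a short and a long run in genes with opposite changes. *Slc48a1* was higher and *Slc6a17* lower in knockdown, and the third called member, *Slc12a7*, held no such run in its canonical transcript. Introns and other transcripts were not searched. The median log2 fold change was 0.08 for the 29 members with a run and 0.03 for those without, and 0.03 and 0.00 over all protein-coding genes tested. A run of letters is not a measured binding site, and binding of hnRNP L was not measured in these libraries.

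Of the 123 members, 3 were called, meaning an adjusted p under 0.05, a log2 fold change over 0.5 in size and a mean normalized count over 10. The heme carrier *Slc48a1* and the potassium-chloride cotransporter *Slc12a7* rose, and the amino acid carrier *Slc6a17* fell. Across all 8670 genes tested 2.33% were called higher and 3.22% were called lower. At an unadjusted p under 0.05 there were 10 members with higher values in knockdown and 7 with lower ones. Together these are 13.8% of the members, against 21.8% of all genes. By direction, 10.3% of all genes were higher and 11.5% were lower at that limit. Both knockdown libraries lay above both scrambled libraries for 32 members (26.0%), as for 26.4% of all genes. Both lay below for 22 members (17.9%), against 26.0% of all genes, and the groups overlapped for the other 69. The median log2 fold change of the members was 0.05, and that of all genes was -0.00. These shares were near or below those of all genes, and the differences were not tested. All 4 DESeq2 configurations called 1 member, *Slc48a1*, among the 123, so none in the groups that edgeR left without a call. The median of the genes tested on a chromosome ran from -0.37 (chromosome 9) to 0.30 (chromosome 16) among the autosomes. With these medians removed *Slc48a1* and *Slc6a17* were called and *Slc12a7* was not, and values under this correction are given below beside some of the members.

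**Figure D1:**
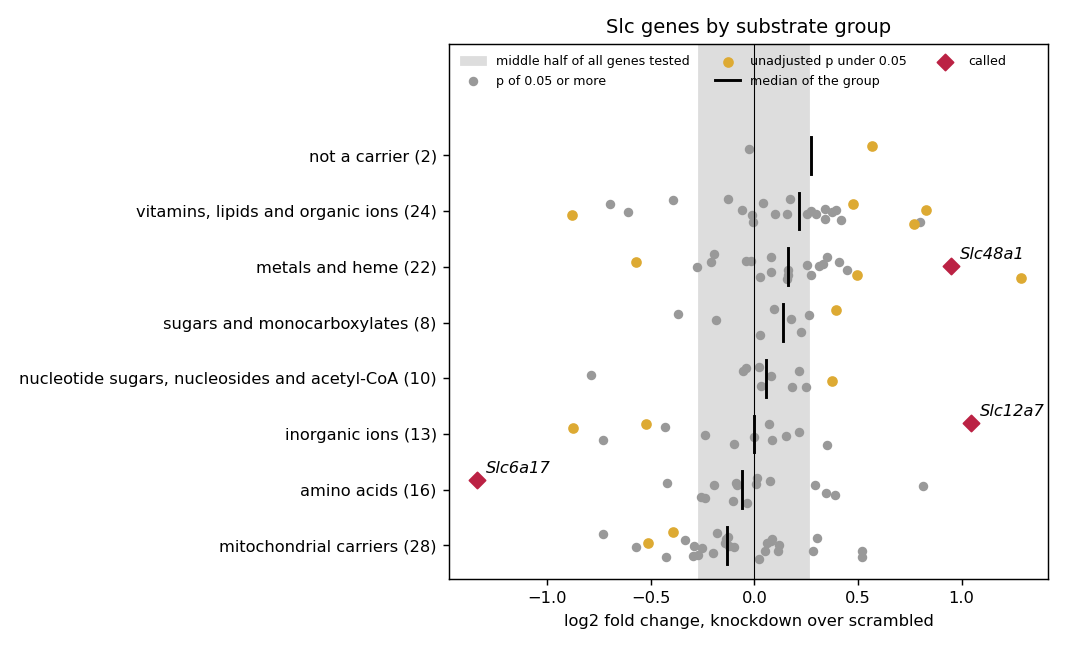
Log2 fold change (x axis, knockdown over scrambled) of each of the 123 members, 1 point per gene, by substrate group (y axis, number of genes in brackets). Diamonds are called genes, yellow points have an unadjusted p under 0.05, black bars are group medians, and the grey band, from -0.27 to 0.27, holds the middle of all 8670 genes; the 3 called members lie outside the band and the group medians lie between -0.13 and 0.27.

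The 22 carriers of metals and heme held the member with the smallest adjusted p. *Slc48a1* (HRG1, ENSMUSG00000081534.4, chr15:97676401-97690573 in GRCm39, forward strand) carries heme from the lumen of endosomes and lysosomes to the cytosol. It had 152 and 198 reads in scrambled against 319 and 266 in knockdown, or normalized counts (reads scaled to the mean library by TMM) of 159, 167, 318 and 311. The libraries of a group were close to each other and the groups lay far apart. The means were 163 ± 5.25 in scrambled and 314 ± 4.90 in knockdown (SD, n = 2), a 1.93-fold rise (log2 fold change 0.95, SE 0.15, adjusted p = 0.000709, edgeR). The gene was called by all 4 DESeq2 configurations and under each of the 13 alternatives that keep all libraries, with adjusted p from 2.21e-06 to 0.00453. Leaving out single libraries moved its log2 fold change only between 0.92 and 0.98, and without knockdown 1 the adjusted p was 0.0794. Of its exon bases, 82.1% are shared with exons of *Hdac7* on the opposite strand, among them the printed 3′ UTR site. *Hdac7*, looked up after this overlap was seen, had 21 and 23 reads in scrambled against 20 and 21 in knockdown, with no called difference (log2 fold change 0.10, adjusted p = 0.898). The strand setting of the counting is not given in the sources used here.

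**Figure D2:**
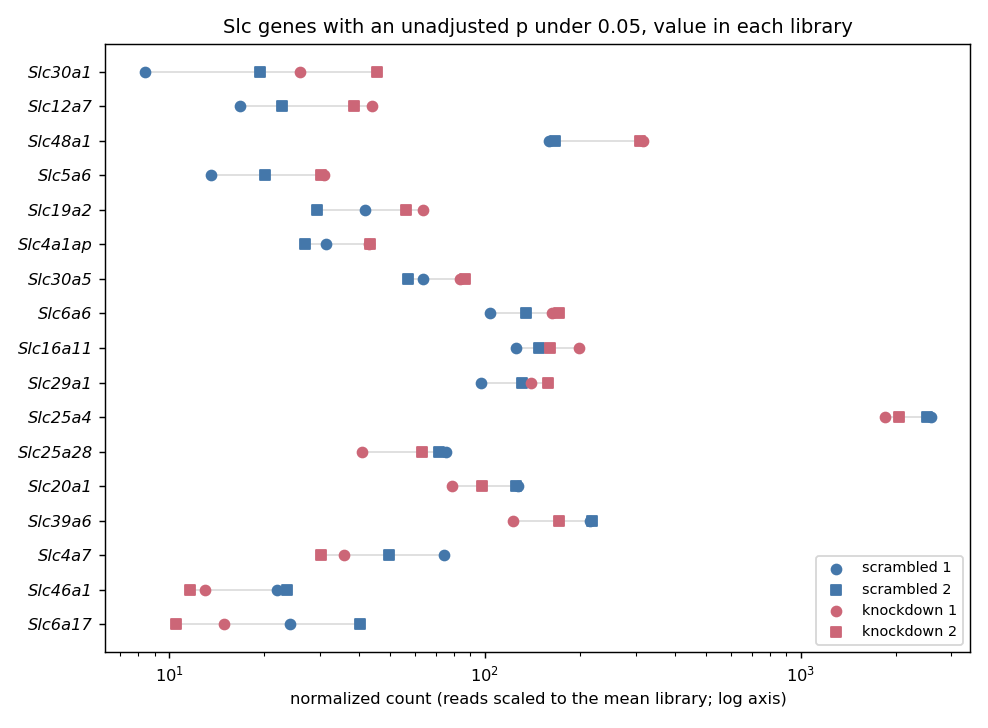
Normalized count (x axis, reads scaled to the mean library, log axis) in each of the 4 libraries for the 17 members with an unadjusted p under 0.05 (y axis); blue is scrambled, red is knockdown, circles are batch 1 and squares batch 2. In *Slc48a1* the scrambled libraries sit at 159 and 167, those of the knockdown at 318 and 311, while in *Slc29a1* and *Slc16a11* the nearest libraries of the 2 groups almost touch.

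The zinc carriers made up 15 of the metal carriers. *Slc30a1* (ZnT1, chr1:191638808-191645361, forward strand) exports zinc through the plasma membrane, and it had 8 and 23 reads in scrambled against 26 and 39 in knockdown. Both knockdown libraries were above both scrambled libraries, although scrambled 2 (normalized count 19.3) and knockdown 1 (25.9) lay near each other. The log2 fold change of 1.29 was the highest among the members (SE 0.39) and missed the limit in the main test (adjusted p = 0.0567). It passed with batch as a replicate block (log2 fold change 1.37, adjusted p = 0.0193) and lay between 0.85 and 2.05 when single libraries were left out.

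*Slc30a5* (ZnT5), which loads zinc into the secretory pathway, had normalized counts of 63.9 and 57.2 in scrambled against 83.7 and 86.5 in knockdown, groups that did not overlap (log2 fold change 0.49, unadjusted p = 0.0207, adjusted p = 0.143, and 0.27 with chromosome medians removed). *Slc30a4* (ZnT4), a carrier of intracellular vesicles with the second largest number of reads among the metal carriers, had 197, 189, 206 and 226 (log2 fold change 0.16, adjusted p = 0.576, and 0.10 without knockdown 2). The 6 Slc30a members all had positive log2 fold changes, from 0.03 to 1.29 with a median of 0.25, and none of them was called. Both knockdown libraries lay above for 4 of them (66.7%, against 26.4% of all genes), a difference that was not tested. Their summed normalized counts were 458 and 445 in scrambled against 515 and 562 in knockdown, without overlap. *Slc30a7* (-0.07) and *Slc30a9* (-0.15), named after their values were seen, turned negative with chromosome medians removed. *Slc30a7* was also at -0.27 without knockdown 2, and *Slc30a9* at -0.03 without knockdown 1.

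*Slc39a6* (ZIP6, on chromosome 18), a zinc importer, went the other way with 206 and 260 reads in scrambled against 123 and 147 in knockdown. Its normalized counts of 216 and 219 in scrambled exceeded those of 123 and 172 in knockdown (log2 fold change -0.57, SE 0.17, adjusted p = 0.0552). The median of all genes tested on chromosome 18 was -0.28, and after removal of the chromosome medians *Slc39a6* was at -0.29 (adjusted p = 0.474). Without knockdown 1 it was at -0.34. Among the 9 Slc39a members 5 had positive and 4 negative log2 fold changes with a median of 0.16. Of the 9, 4 had both knockdown libraries above (44.4%, against 26.4% of all genes). Those 4 were *Slc39a8*, *Slc39a9*, *Slc39a13* and *Slc39a14*, with log2 fold changes of 0.45, 0.33, 0.27 and 0.31 and adjusted p from 0.383 to 0.589, and they are named because of that order of the libraries, after their values were seen. Leaving out 1 library took *Slc39a8* to 0.15 (without scrambled 1), *Slc39a9* to 0.07 and *Slc39a13* to 0.08 (both without knockdown 1), and *Slc39a14* was at 0.67 with chromosome medians removed (adjusted p = 0.0712). The summed normalized counts of the Slc39a members were 597 and 639 in scrambled against 574 and 573 in knockdown.

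**Figure D3:**
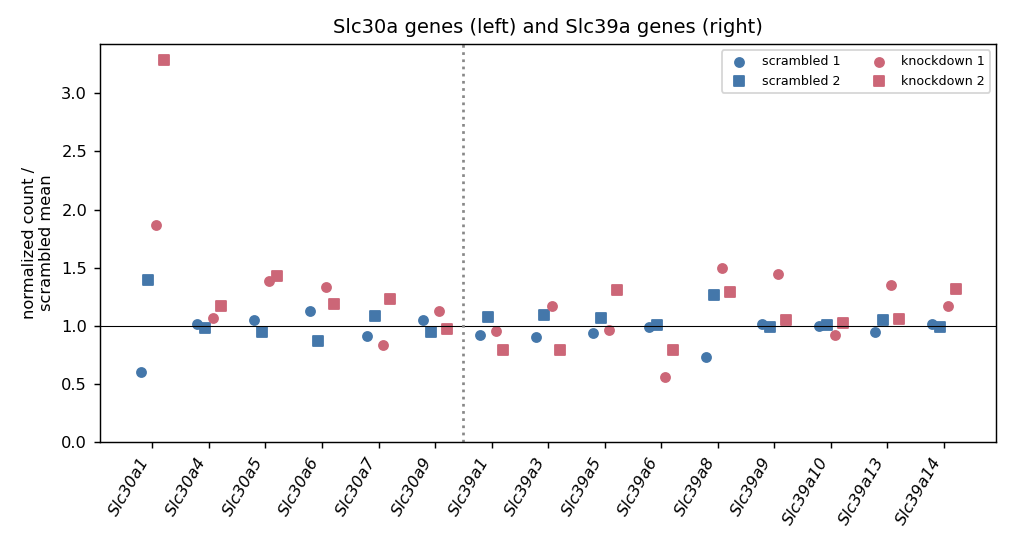
Normalized count of each zinc carrier gene divided by its scrambled mean (y axis) in the 4 libraries, for 6 Slc30a genes left and 9 Slc39a genes right of the dotted line (x axis); blue is scrambled and red is knockdown. *Slc30a1* reaches the highest relative values in knockdown, and *Slc39a6* has both knockdown libraries below both scrambled ones.

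Of all 22 carriers of metals and heme, 9 had both knockdown libraries above both scrambled libraries (40.9%, against 26.4% of all genes) and 2 had them below (9.09%, against 26.0%), with a median log2 fold change of 0.16. Their summed normalized counts were 1472 and 1470 in scrambled against 1676 and 1656 in knockdown, and *Slc48a1*, with means of 163 and 314, made up most of that difference. The median was 0.15 between the libraries of batch 1 and 0.08 between those of batch 2, and it lay between 0.11 and 0.27 over the alternatives. The copper importer *Slc31a1* (72, 85, 70 and 43 reads, log2 fold change -0.28, adjusted p = 0.488) was the other member below, at -0.55 without knockdown 1 and -0.07 without knockdown 2, and it is named after its values were seen.

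Mitochondrial carriers were the group with the most reads, 30482 of the 57060 reads on members. Both ADP/ATP carriers, which exchange ADP for ATP across the inner membrane, led this group. *Slc25a4* (ANT1, the heart and muscle form) had 2473 and 2992 reads in scrambled against 1860 and 1747 in knockdown, or normalized counts of 2589, 2517, 1853 and 2042. The knockdown libraries lay below the scrambled ones by more than the spread within either group (2553 ± 51.0 against 1947 ± 133, SD, n = 2), yet the gene was not called (log2 fold change -0.39, SE 0.14, adjusted p = 0.0979). Its adjusted p was 0.0432 in DESeq2 (Wald test, local fit), where the log2 fold change of -0.40 stayed inside the limit of 0.5. *Slc25a5* (ANT2, the form of dividing cells) had 2523, 3155, 2382 and 2135 reads (log2 fold change -0.12, adjusted p = 0.651, and -0.03 with chromosome medians removed).

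The reads of *Slc25a4* per read of *Slc25a5*, a ratio that needs no scaling between libraries, were 0.980 and 0.948 in scrambled against 0.781 and 0.818 in knockdown. The ratio was computed after both genes had been seen, so it is a description without a test, and it says only that the pair changed unequally. The annotated near-identical copies of *Slc25a5*, *Gm5560* and *Gm5529*, held 0 to 3 reads per library in sum, and adding them moved no ratio beyond 0.979, 0.948, 0.780 and 0.818.

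**Figure D4:**
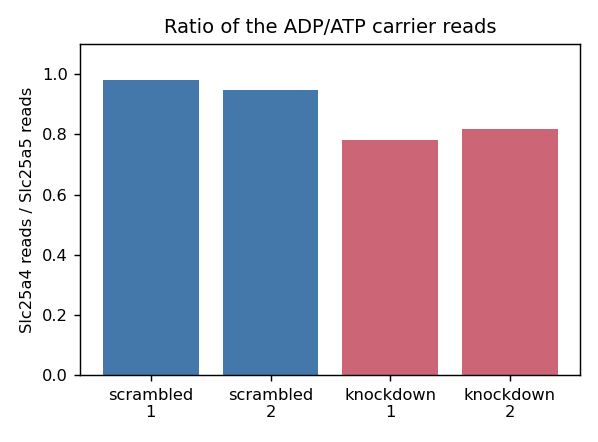
Reads of *Slc25a4* divided by reads of *Slc25a5* (y axis, from 0) in each of the 4 libraries (x axis, 1 bar per library, no error bar as each bar is 1 library). The scrambled bars stand at 0.980 and 0.948 and the knockdown bars at 0.781 and 0.818.

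*Slc25a28* (mitoferrin-2), an iron importer of mitochondria, had 72 and 85 reads in scrambled against 41 and 54 in knockdown, without overlap of the normalized counts (log2 fold change -0.51, unadjusted p = 0.0379, adjusted p = 0.198). The value was -0.22 without knockdown 1 and -0.28 with chromosome medians removed. Its paralogue *Slc25a37* (mitoferrin-1), named for that kinship after its values were seen, had normalized counts of 67.0 and 72.3 in scrambled against 59.8 and 50.3 in knockdown (log2 fold change -0.34, adjusted p = 0.372). *Slc25a37* lies on chromosome 14, and with chromosome medians removed its sign turned (log2 fold change 0.025). *Slc25a20*, the carnitine-acylcarnitine carrier at the read limit, had 14, 10, 8 and 9 reads, and its groups overlapped. Of the 28 mitochondrial carriers none was called, 10 had both knockdown libraries below both scrambled (35.7%, against 26.0% of all genes) and 5 above (17.9%, against 26.4%). The 10 include *Slc25a17* and *Slc25a46*, which do not act in the inner membrane. Of all genes, 2.33% were called higher and 3.22% lower. At an unadjusted p under 0.05 edgeR gave 2 of them, *Slc25a4* and *Slc25a28*, both lower, which is 7.14% where 11.5% of all genes were lower.

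The median log2 fold change of the mitochondrial carriers was -0.13, with -0.12 in batch 1 and -0.11 in batch 2. It moved to -0.06 without knockdown 2 and to -0.02 when chromosome medians were removed. Their summed normalized counts were 8067 and 7956 in scrambled against 7025 and 7327 in knockdown, a sum in which *Slc25a4* and *Slc25a5* weigh most. Among 10 tested genes of the machinery that inserts carriers into the inner membrane (the TIM22 and TOM receptors and their small chaperones) none was called and none had an unadjusted p under 0.05, with a median of 0.01. The smallest adjusted p of these genes in DESeq2 (Wald test, local fit) was 0.815.

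Amino acid carriers (16 members) gave 1 call. *Slc6a17* (NTT4, chr3:107374859-107428439, reverse strand) carries neutral amino acids into vesicles and is known from synaptic vesicles of neurons. It had 23 and 48 reads in scrambled against 15 and 9 in knockdown, or normalized counts of 24.1, 40.4, 14.9 and 10.5. The groups did not overlap, but the scrambled libraries differed widely (32.2 ± 11.5 against 12.7 ± 3.13, SD, n = 2). The fall was 1.34 on the log2 scale (SE 0.38, adjusted p = 0.0400, edgeR), and the gene carries the run of 51 bases printed above. The call was lost without scrambled 2 (log2 fold change -0.90, adjusted p = 0.343), without knockdown 1 (-1.63, adjusted p = 0.227) and without knockdown 2 (-1.13, adjusted p = 0.172), and neither upper quartile factors (adjusted p = 0.0516) nor any DESeq2 configuration made it (adjusted p from 0.228 to 0.626).

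The amino acid carriers with the most reads differed little. *Slc38a2* (SNAT2), a sodium-coupled carrier of small neutral amino acids, had normalized counts of 596 and 564 in scrambled against 492 and 491 in knockdown (log2 fold change -0.24, adjusted p = 0.315, and -0.13 with chromosome medians removed). *Slc3a2*, the heavy chain that brings several exchangers to the cell surface, had 316, 322, 288 and 313 (log2 fold change -0.09, adjusted p = 0.770). Both genes had the knockdown libraries below the scrambled ones, by a small margin for *Slc3a2*. The group had a median of -0.06, with 3 members above (18.8%, against 26.4% of all genes), 3 below (18.8%, against 26.0%) and 10 overlapping. The median was 0.04 in batch 1 and -0.07 in batch 2. It turned positive with chromosome medians removed and without knockdown 2.

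The genes of the amino acid response, a list of 16 targets and factors of ATF4 of which 15 were tested, had a median log2 fold change of -0.00, with 1 gene at an unadjusted p under 0.05 on the higher and 2 on the lower side, where all genes gave 10.3% and 11.5%. One was called, *Cth*, which makes cysteine from cystathionine, with 70 and 63 reads in scrambled against 29 and 30 in knockdown (log2 fold change -0.97, SE 0.26, adjusted p = 0.0328, edgeR). DESeq2 did not call *Cth* (adjusted p = 0.171 with the local and 0.485 with the parametric fit of the Wald test), and 3.22% of all genes were called lower.

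Among the 13 carriers of inorganic ions, *Slc12a7* (KCC4, chr13:73881213-73964874, forward strand) moves potassium and chloride out of the cell together. It had 16 and 27 reads in scrambled against 44 and 33 in knockdown, or normalized counts of 16.8, 22.7, 43.8 and 38.6. Both knockdown libraries were well above both scrambled ones (41.2 ± 3.73 against 19.7 ± 4.22, SD, n = 2). The 2.06-fold rise (log2 fold change 1.04, SE 0.30, adjusted p = 0.0467, edgeR) rested on few reads, and leaving out any single library lost the call (log2 fold change 0.86 to 1.29, adjusted p from 0.0502 to 0.284). The median of the genes on chromosome 13 was 0.23, and after removal of the chromosome medians *Slc12a7* was at 0.82 (adjusted p = 0.176).

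*Slc4a7* (NBCn1), a sodium bicarbonate cotransporter that takes base into the cell, pointed the other way. It had 71 and 59 reads in scrambled against 36 and 26 in knockdown, without overlap (normalized counts 74.3, 49.6, 35.9 and 30.4). Its log2 fold change was -0.88 (SE 0.27, adjusted p = 0.0566), and with batch as a replicate block it was called (-0.90, adjusted p = 0.0389), and without scrambled 1 it was at -0.57. It lies on chromosome 14, whose genes had a median of -0.36, and with chromosome medians removed it was at -0.51 (adjusted p = 0.399).

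*Slc20a1* (PiT1), a sodium-coupled phosphate importer, had normalized counts of 128 and 125 in scrambled against 78.7 and 98.2 in knockdown, groups that did not overlap (log2 fold change -0.52, adjusted p = 0.0851). *Slc12a2* (NKCC1), which brings sodium, potassium and chloride into the cell, had 82.7, 74.9, 93.7 and 80.6, and its groups overlapped (log2 fold change 0.15, adjusted p = 0.684). It was at 0.43 with chromosome medians removed (adjusted p = 0.280) and at 0.04 without knockdown 1. The group as a whole had a median of -0.00, with 1 member above (7.69%, against 26.4% of all genes), 2 below (15.4%, against 26.0%) and 10 overlapping. Its median was 0.17 in batch 1 and -0.03 in batch 2. Its range, from -0.88 to 1.04, was the second widest of the groups after that of the amino acid carriers.

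The 24 carriers of vitamins, lipids and organic ions held 4 members with an unadjusted p under 0.05, 3 higher and 1 lower, where 10.3% of all genes were higher and 11.5% lower, and no call. *Slc19a2* (THTR1) imports thiamine and had 40 and 35 reads in scrambled against 64 and 48 in knockdown, without overlap (log2 fold change 0.77, SE 0.25, adjusted p = 0.0765). *Slc6a6* (TauT), the taurine carrier with the CA run of 29 bases, had normalized counts of 104, 135, 163 and 172, again with the knockdown libraries above (log2 fold change 0.48, adjusted p = 0.106). It was at 0.31 without scrambled 1 and at 0.20 with chromosome medians removed. *Slc5a6* (SMVT), which imports biotin and pantothenate, had 13, 24, 31 and 26 reads (log2 fold change 0.83, adjusted p = 0.147), and a processed copy, *Gm6157*, had 0 reads.

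*Slc46a1* (PCFT), the proton-coupled folate carrier, was the one of the 4 on the lower side, with 21 and 28 reads in scrambled against 13 and 10 in knockdown (log2 fold change -0.88, adjusted p = 0.170). Exons of *Sarm1* on the opposite strand share 54.8% of its exon bases. The group's most read members were *Slc6a8*, the creatine carrier, with normalized counts of 213, 229, 199 and 206 (log2 fold change -0.13, adjusted p = 0.674), and *Slc44a2*, a choline transporter-like protein, with 196, 220, 225 and 187 (-0.01, adjusted p = 0.974). *Slc6a8* was at -0.07 without scrambled 2 and at -0.03 with chromosome medians removed. For *Slc44a2* the groups overlapped, and its sign changed under several alternatives. The group had the highest median among the carrier groups, 0.21, with 8 members above (33.3%, against 26.4% of all genes) and 5 below (20.8%, against 26.0%), and batch values of 0.30 and 0.17.

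Carriers of sugars and monocarboxylates (8 members) had a median of 0.14 and no call. *Slc16a1* (MCT1), the proton-coupled lactate and pyruvate carrier, had normalized counts of 257 and 242 in scrambled against 296 and 286 in knockdown (log2 fold change 0.22, adjusted p = 0.385, and 0.13 with chromosome medians removed). *Slc16a11* (MCT11) had 126, 149, 199 and 161 (log2 fold change 0.39, 0.22 without knockdown 1, unadjusted p = 0.0313, adjusted p = 0.178), and 92.2% of its exon bases are shared with *Slc16a13* on the opposite strand. Both genes had the knockdown libraries above the scrambled ones. The glucose carrier *Slc2a1*, named after its values were seen, had 76, 123, 81 and 70 reads with overlapping normalized counts (log2 fold change -0.18, adjusted p = 0.624), and its sign turned without scrambled 2 (0.026). The median of the group turned to -0.11 without knockdown 1.

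Carriers of nucleotide sugars, nucleosides and acetyl-CoA (10 members) had a median of 0.06, with 2 members above, none below and 8 overlapping, where 26.4% of all genes lay above and 26.0% below. The median was 0.32 in batch 1 and -0.02 in batch 2, and it turned negative without knockdown 1. *Slc29a1* (ENT1), an equilibrative nucleoside carrier of the plasma membrane, had normalized counts of 97.4, 131, 140 and 159 (log2 fold change 0.38, unadjusted p = 0.0482, adjusted p = 0.224). Without scrambled 1 the value was 0.19, without scrambled 2 it was 0.61, and with chromosome medians removed 0.18. *Slc35a4*, a Golgi member of a family of nucleotide sugar carriers, had 158, 210, 200 and 175 (log2 fold change 0.02, adjusted p = 0.957, and 0.30 with chromosome medians removed) and overlapping groups. An annotated gene model with the same transcript sequence, *Gm58354*, covers it, so its reads are uncertain. Of the members that are no carriers, *Slc4a1ap* (kanadaptin) had 31.4, 26.9, 42.8 and 43.2 (log2 fold change 0.57, 0.34 with chromosome medians removed, unadjusted p = 0.0499, adjusted p = 0.228) and *Slc7a6os* had 72.2, 46.3, 45.8 and 70.1 (-0.03, adjusted p = 0.970).

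**Figure D5:**
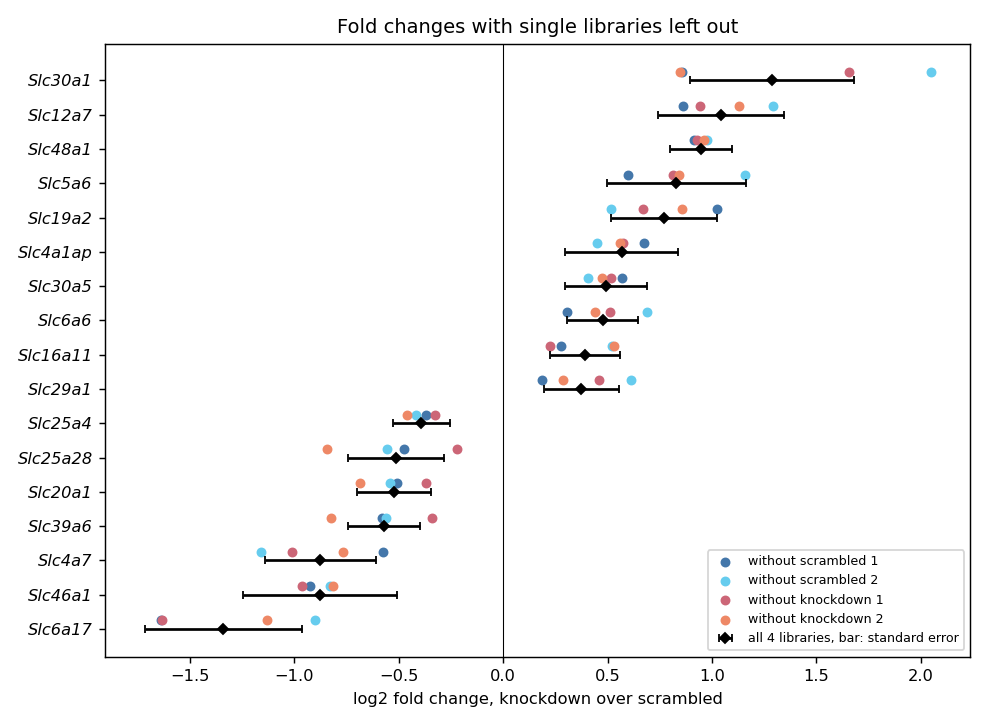
Log2 fold change (x axis, knockdown over scrambled) of the 17 members with an unadjusted p under 0.05 (y axis) from all 4 libraries (black, bar: standard error) and with each library left out in turn (colours). All 17 kept their direction, with *Slc48a1* between 0.92 and 0.98 and *Slc30a1* between 0.85 and 2.05.

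Carriers and partners that are named outside the Slc system were followed in a list of 20 genes, 13 of them tested. Of these, 6 had an unadjusted p under 0.05 with higher and 1 with lower values in knockdown, and 8 had both knockdown libraries above both scrambled ones, with a median log2 fold change of 0.35. Over all genes tested these shares were 10.3%, 11.5% and 26.4%, and the list was not tested as a set. With chromosome medians removed the median of these 13 genes was 0.14, and some of the positive values turned negative. *Flvcr1*, a plasma membrane carrier described for heme and choline, was the called gene, with 43 and 45 reads in scrambled against 74 and 67 in knockdown (log2 fold change 0.88, SE 0.22, adjusted p = 0.0230, edgeR). Its groups lay clearly apart, and DESeq2 did not call it (Wald test, local fit, adjusted p = 0.168), nor did edgeR with chromosome medians removed (log2 fold change 0.69, adjusted p = 0.107). *Bsg* (basigin), the partner that takes *Slc16a1* to the cell surface, was named for that partnership after its values were seen and had 788, 903, 1032 and 852 reads (log2 fold change 0.35, unadjusted p = 0.0162, adjusted p = 0.125), and 0.11 with chromosome medians removed (adjusted p = 0.771).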

How the data were processed

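Direct RNA of 2 scrambled and 2 *Hnrnpl* knockdown C2C12 cultures was used. The deposited values are raw counts per gene ID, which the authors made with HTSeq 0.9.1 from basecalled reads aligned by minimap2 2.17 to GRCm39. The annotation release and strand setting of the counting are not given in the sources used here. In each file, 42.2% to 43.5% of the reads stood in rows that name no gene, and these were left out. Symbols and exons came from GENCODE vM39, which held 56017 of the 56748 IDs. The whole table was tested in edgeR 4.0.16 under R 4.3.3 (TMM, filterByExpr, quasi-likelihood test with legacy = TRUE, Benjamini-Hochberg over 8670 genes), after tests on simulated data. DESeq2 1.42.0 in 4 configurations, other scalings, filters, tests, chromosome medians and leaving out each library were alternatives.

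Members and lists were chosen with earlier results of these data known. Named genes are *Hnrnpl*, members with an unadjusted p under 0.05, the 2 most read of each group, the 2 genes on either side of the read limit and list genes with an adjusted p under 0.05. Batch labels pair the libraries. The correlation between the batch 1 libraries, as deviations from the mean of their group, was -0.01 over 7705 genes. Copies were genes at 95% identity over 50% of a transcript (minimap2 2.31-r1302). Carriers with another letter in the symbol, single transcripts and splicing were not analysed here. The result of 1 list of other genes is not reported here.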

Additional observations from a re-analysis of the deposited data

How the results depend on the processing

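Over 17 alternatives the 2 members called higher became 1 with each DESeq2 configuration and with chromosome medians removed, and 0 to 3 when single libraries were left out (0 without knockdown 1, 1 without knockdown 2). The 1 member called lower became 0 with each DESeq2 configuration and with upper quartile factors, 3 with no filter on low counts and with the robust test, and 0 to 2 without single libraries (0 without knockdown 1, 2 without scrambled 1). With batch as a replicate block, 3 were called higher and 2 lower, *Slc30a1* and *Slc4a7* being added. *Hnrnpl* was at -0.78 and not significant with the parametric fit of DESeq2 (adjusted p = 0.0567 by the Wald test and 0.0670 by the likelihood-ratio test), and at -1.03 to -0.47 without single libraries. Signs changed, none of them called, for *Slc25a20* (0.068 with chromosome medians removed, -0.68 to 0.12 without single libraries), *Slc35a4* (-0.16 to 0.25 without single libraries, and 0.30 with chromosome medians removed), *Slc3a2* (0.14 with chromosome medians removed), *Slc44a2* (0.0088 with upper quartile factors, 0.35 with chromosome medians removed, -0.16 to 0.11 without single libraries) and *Slc7a6os* (0.055 with chromosome medians removed, -0.35 to 0.31 without single libraries). Among genes named after their values were seen, signs also changed for *Slc25a37* (0.025 with chromosome medians removed), *Slc2a1* (0.026 without scrambled 2) and *Hdac7* (-0.05 without knockdown 2). They changed as well for *Slc30a7* (-0.07) and *Slc30a9* (-0.15) with chromosome medians removed, and for the marker *Mef2a* (0.16 without knockdown 2). Of 488 values of named members, 442 kept direction and side of the threshold, 16 newly passed, 18 no longer passed and 12 changed sign. Of the 29 named members, 3 were under an adjusted p of 0.05 in the main test, and the 18 losses all lie among their values. Most of the 442 values were thus above that limit in both the main test and the alternative. The cause of the changes in sign and side was not tested. With 40 reads over 4 libraries at the limit, counting error alone is wide for the least read members.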
